A study of Homo sapiens with 12 samples.

Results

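The mitochondrial ribosomal proteins were taken as all genes of the deposited table whose symbol began with MRPL or MRPS followed by a number. This gave 78 of 19973 genes, of which 49 carried the MRPL prefix (large subunit) and 29 the MRPS prefix (small subunit). The prefix is not always the place. MRPS18A and MRPS30 lie in the large subunit by structure, and MRPS36 is not in structures of the mitochondrial ribosome. They are counted here with the MRPS genes, by name. The study treated the human non-small cell lung cancer lines A549 and H460 with ISP-I, isovalerylspiramycin I, a macrolide and constituent of the antibiotic carrimycin, and asked how their transcripts changed. RNA-seq was made of 4 groups of 3 libraries each, 12 in all: non-treated A549, A549 with ISP-I at 10 μM for 48 h, non-treated H460, and H460 with ISP-I at 10 μM for 48 h. Both lines were labelled WT, while the authors state that both carry homozygous KEAP1 mutations that inactivate the gene. Whether the non-treated cells of the RNA-seq received a vehicle was not said in any source, while several other cell assays of the paper used DMSO as control. Each line is a single established cell line. The paper says of its means in general that they came from 3 independent experiments, and gives the RNA-seq 3 replicates per group. No source said for the RNA-seq that the libraries of a group came from separate cultures. P-values therefore measured only the spread between these libraries.

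The mitochondrial ribosome (mitoribosome) translates the mRNAs of the mitochondrial genome, which all encode subunits of the respiratory chain and ATP synthase. Its rRNAs come from the mitochondrial genome, but all of its proteins are encoded in the nucleus, made in the cytosol and imported. Many descend from the proteins of bacterial ribosomes, the target that macrolide antibiotics bind in the exit tunnel of the large subunit, and others are found only in mitochondria.

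The libraries held 14225849 to 17874422 reads on genes. Of the 5 epithelial markers examined (EPCAM, KRT8, KRT18, KRT19 and CDH1), 5 reached 1 FPKM (fragments scaled by gene length and by the reads of the library) in non-treated A549 and 3 in non-treated H460, where EPCAM had a mean of 0.0473 FPKM and CDH1 of 0. The 4 markers of lung epithelium (NKX2-1, NAPSA, SFTPC and SFTPB), the 3 of leukocytes and the 3 of endothelium were all under 1 FPKM in every group. Of 3 fibroblast markers (COL1A1, COL3A1 and PDGFRB) 0 reached 1 FPKM in A549. In H460 2 did, though not the same 2 without and with ISP-I. Their summed level in H460 was 9.61 to 11.1 FPKM in non-treated and 4.91 to 5.79 FPKM in ISP-I libraries. The markers did not move together: mean COL3A1 went from 8.60 to 2.25 FPKM and COL1A1 from 1.19 to 0.76, while PDGFRB went from 0.543 to 2.40. The part of these markers in the results was not tested. A pair of libraries stood apart upward in the mitoribosomal genes. ISP-I library 3 of H460 was higher than both other libraries of its group in 64 of the 78 genes, and non-treated library 3 of A549 in 49 of 78. Their median log2 differences from the others, over members that averaged 1 FPKM or more, were 0.59 and 0.22. Other libraries deviated too. ISP-I library 2 of A549 was higher than both others in 52 genes, with a median of 0.08. ISP-I library 2 of H460 was lower than both others in 55, with a median of -0.40. Results are given with and without the upward pair, and also with each library left out in turn.

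Of the 78 genes, 69 had an entry in the RefSeq promoter table (GRCh38.p14), and the same short motifs recurred in them. The promoters of 4 genes near the ends of the range of change, picked by hand, are shown as examples. The window searched ran from 250 bases before to 50 bases after the annotated start, on both strands. A gene with several promoter entries was counted once, as a match if any entry held the letters. The letters CCGGAAG, a core of sites for ETS family factors such as GABP, were found for 43.5% of the 69 genes. Of the 15166 genes of the deposited table with an entry, 16.7% held them. AAGATGGCG, a YY1 site, was found in 18.8% and 3.3%, GCATGCGC, a site of NRF1, in 8.7% and 4.91%, and the E-box CACGTG in 13% and 11%. A match describes the letters and does not show that a factor bound. All 4 promoters shown hold ETS or YY1 letters, so they do not stand for the members at large. MRPL34, which had the largest fall in H460, had none of these motifs in its promoter entries and is not shown. The stretches below run from 170 bases before to 30 bases after the start, read 5′ to 3′ on the strand of the gene, with the motif letters in capitals. They are MRPL16 at chr11:59810749-59810948 on the minus strand, MRPS30 at chr5:44808777-44808976 on the plus strand, MRPS18A at chr6:43687762-43687961 on the minus strand, and MRPL58 at chr17:75012500-75012699 on the plus strand.
MRPL16: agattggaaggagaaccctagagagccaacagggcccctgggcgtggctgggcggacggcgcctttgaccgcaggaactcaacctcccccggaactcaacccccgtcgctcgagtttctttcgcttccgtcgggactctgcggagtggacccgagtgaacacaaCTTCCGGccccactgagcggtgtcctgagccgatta
MRPS30: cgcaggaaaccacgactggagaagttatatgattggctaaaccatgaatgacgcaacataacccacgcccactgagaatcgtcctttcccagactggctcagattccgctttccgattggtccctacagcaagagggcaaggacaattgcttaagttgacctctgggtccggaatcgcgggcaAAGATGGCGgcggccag
MRPS18A: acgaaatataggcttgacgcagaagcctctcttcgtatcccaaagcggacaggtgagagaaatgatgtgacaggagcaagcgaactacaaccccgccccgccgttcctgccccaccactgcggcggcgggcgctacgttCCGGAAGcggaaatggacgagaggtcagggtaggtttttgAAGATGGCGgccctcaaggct
MRPL58: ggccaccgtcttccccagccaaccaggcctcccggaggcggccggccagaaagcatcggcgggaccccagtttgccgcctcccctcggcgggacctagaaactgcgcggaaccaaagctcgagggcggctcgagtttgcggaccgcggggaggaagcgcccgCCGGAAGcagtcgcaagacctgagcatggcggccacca

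The ETS letters stood in reverse in MRPL16, beginning at position -6 from the start, and forward in MRPL58 at -8 and MRPS18A at -31. The YY1 letters began at position 14 in MRPS30 and at 10 in MRPS18A. In H460, the 29 tested genes with ETS letters had a median log2 difference of -0.50 and the 39 without them -0.46. In A549 these medians were 0.36 and 0.30. The 13 genes with YY1 letters had a median of 0.09 in H460 against -0.59 for the 55 without, and in A549 0.45 for 12 genes against 0.32 for 55. The H460 median of the YY1 genes was the value of MRPS24, which had at most 15 reads in a library. MRPL38 and MRPL46, also among the YY1 genes, averaged under 1 FPKM, where log2(FPKM+1) understates changes. These are descriptions of the genes with a promoter entry, and no test was made of the motif groups.

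Most members were well expressed. In non-treated cells the median MRPL gene had 18.6 FPKM in A549 and 25.02 FPKM in H460, and the median MRPS gene 12.5 and 19.2 FPKM. The highest mean level over the 12 libraries was 120.8 FPKM for MRPL41, a protein of the mitochondrial large subunit with no bacterial homolog. Among MRPS genes it was 100.2 FPKM for MRPS26, a mitochondria-specific protein of the small subunit. MRPS12, which sits at the decoding centre, had a mean of 97.9 FPKM.

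At the other end, 7 of the 78 genes had a mean level under 1 FPKM. MRPL53, a protein near the stalk, had 0 reads in all 12 libraries and could not be tested. MRPS24 had a mean of 0.129 FPKM from at most 15 reads in a library, and MRPL2, a protein of the catalytic core, had 0.146 FPKM from at most 13 reads. Both were under the minimum of 0.1 FPKM in A549 and were tested only where the mean of the fitted libraries reached it. The others were MRPS18C at 0.356, MRPL46 at 0.391, MRPL38 at 0.635 and MRPS28 at 0.777 FPKM. In the GENCODE annotation these 7 genes shared a median of 35.8% of their exon bases with another gene, from 11.3% in MRPL46 to 99.4% in MRPL53. The other 71 genes shared a median of 0%. At least 20% was shared by 6 of the 7 and by 14 of the 71. Reads on shared exons can be dropped or assigned to the partner in counting, and the strand setting of the counting was not given in the sources used here. A level near 0 therefore does not show that these genes were silent, and the part of the overlap in these levels was not tested. MRPL12, the stalk protein that recruits translation factors, had 69.5% of its exon bases shared and a mean level of 2.81 FPKM. MRPS18A (50.9%), MRPS34 (31.2%) and MRPL34 (14.6%) overlapped genes on the opposite strand.

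**Figure D1:**
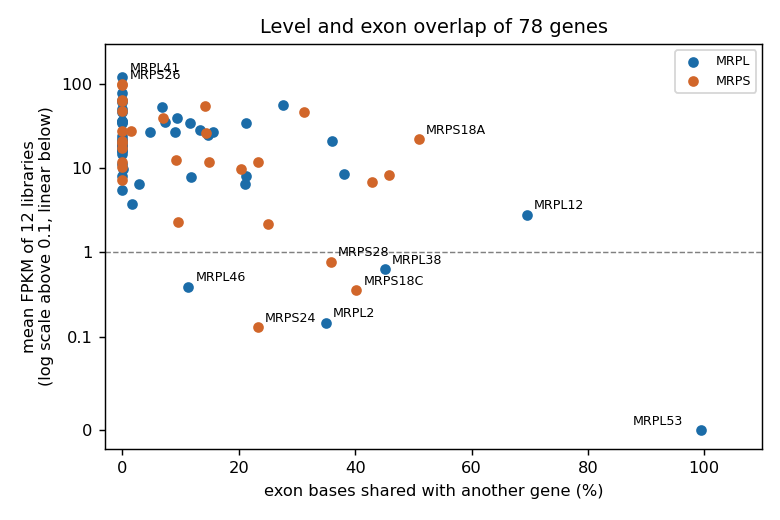
Mean FPKM over 12 libraries (y axis, log scale above 0.1 and linear below) against the percent of exon bases that each of the 78 genes shares with another gene in GENCODE (x axis); points are genes, blue MRPL and orange MRPS, and the dashed line marks 1 FPKM. The 7 genes under the line share 11.3% to 99.4% of their exon bases.

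In H460, the MRPL genes were on the whole lower after ISP-I, and a few were higher. Their summed level was 1428, 1443 and 1389 FPKM in the non-treated libraries and 854.8, 776.8 and 1352 FPKM in the ISP-I libraries. The first and second ISP-I libraries lay far below all non-treated ones and the third just below them. For MRPS genes the non-treated sums were 765.6, 787.1 and 792.6 FPKM, and the ISP-I sums 519.6, 471.6 and 748.1 FPKM. The limma test on log2(FPKM+1) within H460, adjusted over all 13423 genes tested, found 22 of 48 MRPL genes lower and 3 higher at an adjusted p under 0.05, and 11 of 29 MRPS genes lower and 3 higher. Over all genes 41.5% were lower and 27.6% higher, so the shares of MRPL genes (45.8%) and MRPS genes (37.9%) that fell were near the background. The shares that rose, 6.25% and 10.3%, were under it. A fall of more than 2-fold was found for 8 of 48 MRPL and 4 of 29 MRPS genes, near the 15.2% of all genes. A rise of more than 2-fold was found for 0 genes against 10.5%. The median log2 difference was -0.45 for MRPL and -0.46 for MRPS genes, and -0.15 for all genes tested.

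These counts moved with the libraries and the scaling. Shares of all genes that passed are given only for the full fit, so the counts of the refits have no background of their own. Without ISP-I library 3, 35 MRPL genes (17 by more than 2-fold) and 16 MRPS genes were lower, and the medians were -0.67 and -0.58. Without ISP-I library 1 or 2, the lower MRPL genes numbered 12 and 14, and without library 2 the MRPS genes lower by more than 2-fold numbered 2. After median-of-ratios scaling, which brought the median of all genes from -0.15 to 0.01, 12 MRPL genes were lower and 8 higher, with 7 and 4 for MRPS genes, and the medians were -0.21 and -0.20. Groups that did not overlap, with every ISP-I library below every non-treated library, were found for 15 MRPL (31.25%) and 11 MRPS genes (37.9%). Both shares were under the 43.1% of all genes tested. In the opposite direction there were 3 (6.25%) and 3 (10.3%), against 29.6%. In bulk RNA, fewer cells of a type and less RNA per cell cannot be told apart.

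**Figure D2:**
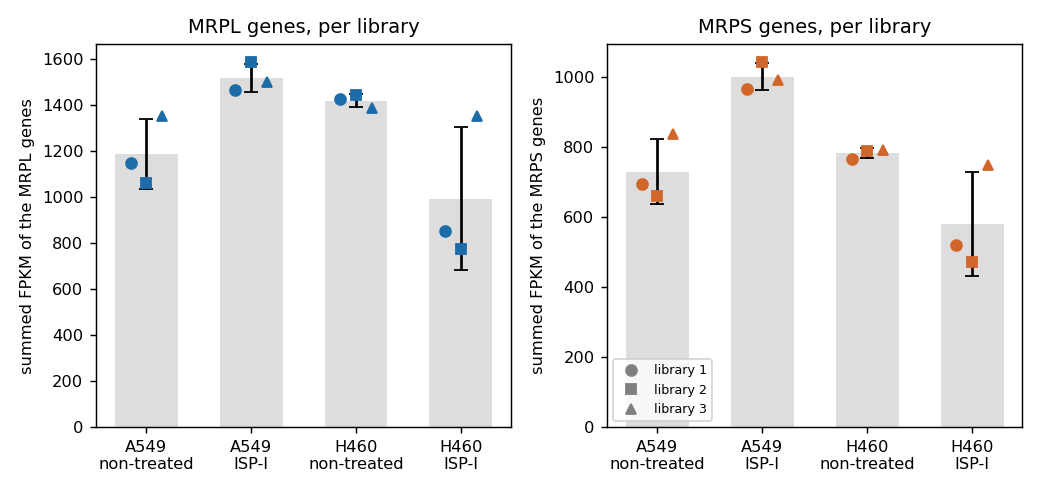
Summed FPKM of the 49 MRPL genes (left) and the 29 MRPS genes (right) in each library; bars are group means, error bars the SD of 3 libraries, and symbols the libraries. ISP-I library 3 of H460 (1352 FPKM for MRPL) lay near the non-treated H460 libraries, while the other 2 lay at 854.8 and 776.8 FPKM, and every A549 ISP-I library lay above every non-treated A549 library.

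The largest falls in H460 were those of MRPL34 and MRPL16, both of bacterial descent in the large subunit. MRPL16 (ENSG00000166902, hg38 chr11:59806140-59810778, minus strand) had 28.6, 30.2 and 25.2 FPKM in non-treated and 5.59, 4.59 and 7.01 FPKM in ISP-I libraries of H460. All ISP-I libraries were far below all non-treated ones, library 3 included, and the log2 difference was -2.12 ± 0.15 (SE, adjusted p 5.96e-06, limma). MRPL34 (ENSG00000130312, chr19:17292609-17306843, plus strand) had 39.9, 42.2 and 34.5 FPKM without and 6.35, 4.42 and 13.1 FPKM with ISP-I. These groups did not overlap, and the log2 difference was -2.27 ± 0.30 (adjusted p 0.000212, limma). MRPL18, a protein of the central protuberance that in bacteria binds the 5S rRNA, had 79.1, 71.0 and 65.2 FPKM without and 23.3, 19.9 and 34.2 FPKM with ISP-I. Its log2 difference was -1.47 ± 0.19 (adjusted p 0.000189, limma), again without overlap.

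Among MRPS genes the largest falls were those of MRPS26, MRPS34 and MRPS14. MRPS26 had 82.4, 87.4 and 84.4 FPKM in non-treated and 30.1, 22.8 and 50.3 FPKM in ISP-I libraries of H460, with a log2 difference of -1.35 ± 0.25 (adjusted p 0.00132, limma). MRPS34, a mitochondria-specific protein of the small subunit, went from 58.2, 64.5 and 81.9 FPKM to 23.7, 21.4 and 44.1 FPKM (log2 difference -1.23 ± 0.26, adjusted p 0.00292, limma). MRPS14, a protein of the small subunit head with a bacterial homolog, went from 21.3, 21.9 and 19.4 FPKM to 8.22, 8.01 and 12.3 FPKM (log2 difference -1.08 ± 0.16, adjusted p 0.000447, limma). None of the 3 genes had overlapping groups, and in all 3 ISP-I library 3 was the highest of its group. MRPL41, the highest gene of the large subunit, went from 172, 186 and 164 FPKM to 67.8, 64.1 and 151 FPKM (log2 difference -0.99 ± 0.30, adjusted p 0.0165, limma). Its groups did not overlap, though ISP-I library 3 lay close to the non-treated ones. The other genes that fell by more than 2-fold were MRPL24, MRPL37, MRPL43, MRPL55, MRPL57 and MRPS16, chosen here by that threshold.

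The genes that rose in H460 were MRPL10, MRPL49, MRPL50, MRPS17, MRPS30 and MRPS31. These 6 also rose in A549. In H460 the groups of MRPL49 (adjusted p 0.0468, limma) and MRPS17 (adjusted p 0.0466, limma) overlapped. MRPS17 had as few as 19 reads in a library. Over all genes, 27.6% rose in H460 and 30.5% in A549, and the share that rose in both is not given here. MRPS30 (ENSG00000112996, chr5:44808947-44820428, plus strand), which despite its name lies in the large subunit, had 20.6, 18.2 and 18.7 FPKM in non-treated and 32.0, 31.5 and 35.0 FPKM in ISP-I libraries of H460. In A549 it had 9.19, 8.98 and 9.61 FPKM without and 17.7, 18.8 and 19.7 FPKM with ISP-I. The groups were apart in both lines, with log2 differences of 0.75 ± 0.11 in H460 (adjusted p 0.000372, limma) and 0.94 ± 0.07 in A549 (adjusted p 1.6e-05, limma).

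MRPS31, a mitochondria-specific protein of the small subunit, went from 7.83, 8.28 and 8.25 FPKM to 14.1, 14.8 and 12.5 FPKM in H460, and from 8.97, 9.60 and 7.03 to 15.2, 17.5 and 18.4 FPKM in A549. Its log2 differences were 0.69 ± 0.11 (adjusted p 0.000557) and 0.93 ± 0.12 (adjusted p 0.000283), both by limma. MRPL10, which anchors the stalk, went from 24.9, 24.9 and 25.7 FPKM to 42.5, 36.3 and 45.5 FPKM in H460, and from 23.9, 21.8 and 32.9 to 48.2, 51.3 and 49.6 FPKM in A549. Neither gene had overlapping groups in either line. MRPL50 rose less, by 0.50 ± 0.13 in H460 and 0.30 ± 0.08 in A549 on the log2 scale.

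In A549 the direction was the other way for most members: the summed MRPL level was 1148, 1063 and 1355 FPKM in non-treated and 1468, 1588 and 1504 FPKM in ISP-I libraries. The MRPS sums were 693.2, 660.7 and 835.7 FPKM without and 966.0, 1042 and 992.0 FPKM with ISP-I. All treated libraries lay above all non-treated ones, of which the third came nearest. The limma test within A549, over 13705 genes, found 26 of 47 MRPL genes (55.3%) and 17 of 28 MRPS genes (60.7%) higher, against 30.5% of all genes. It found 3 MRPL genes and 0 MRPS genes lower, against 27.0%. The medians were 0.31 and 0.36, with 0.02 for all genes. Most of the changes were small, since 1 MRPL and 1 MRPS gene rose by more than 2-fold (4.2% of all genes) and none fell by it (3.51%). Groups lay apart upward for 23 MRPL (48.9%) and 18 MRPS genes (64.3%), against 34.8% of all genes. Downward they did so for 3 (6.38%) and 2 (7.14%), against 30.7%. Without non-treated library 3, 35 MRPL and 20 MRPS genes were higher, and without ISP-I library 2 the MRPL genes numbered 17. In a fit of all 12 libraries, which shares the spread of H460, 13 MRPL and 12 MRPS genes were higher. The shares of all genes in these refits are not given.

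The genes that rose by more than 2-fold in A549 were MRPL58 and MRPS18A. MRPL58 (ENSG00000167862, chr17:75012670-75021261, plus strand), a peptidyl-tRNA hydrolase that frees stalled ribosomes and is also part of the large subunit, had 51.3, 45.6 and 63.0 FPKM without and 108, 116 and 109 FPKM with ISP-I. The log2 difference was 1.06 ± 0.11 (adjusted p 0.000108, limma). In H460 the same gene had 52.9, 54.3 and 42.0 FPKM without and 41.5, 33.5 and 60.9 FPKM with ISP-I, and these groups overlapped (log2 difference -0.17 ± 0.22). MRPS18A (ENSG00000096080, chr6:43671202-43687791, minus strand), a protein of the large subunit by structure, went from 11.7, 10.4 and 15.5 FPKM to 27.1, 28.1 and 26.9 FPKM in A549 (log2 difference 1.08 ± 0.13, adjusted p 0.000186, limma). In H460 its groups overlapped, at 15.4, 23.3 and 23.1 FPKM without and 23.3, 20.2 and 40.6 FPKM with ISP-I (0.38 ± 0.26). MRPL32, whose maturation by the m-AAA protease is a step of ribosome assembly, rose from 17.7, 15.5 and 17.3 FPKM to 29.1, 33.6 and 31.1 FPKM in A549 (log2 difference 0.85 ± 0.08, adjusted p 5.69e-05, limma).

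The MRPL genes lower in A549 were MRPL16, MRPL38 and MRPL42. MRPL16 went from 27.0, 24.6 and 29.7 FPKM to 19.1, 22.0 and 17.8 FPKM (log2 difference -0.45 ± 0.10, adjusted p 0.00533, limma). MRPL42, a mitochondria-specific protein, went from 4.55, 4.70 and 3.89 FPKM to 3.26, 3.40 and 3.38 FPKM (-0.30 ± 0.09, adjusted p 0.0157, limma). In H460 it went from 6.15, 4.49 and 4.66 FPKM to 2.20, 2.61 and 1.82 FPKM (-0.92 ± 0.15, adjusted p 0.000576, limma). These 2 genes were lower in both lines and without overlap. MRPL38 rests on 20 to 47 reads per library. MRPL14 had a log2 difference of -0.24 ± 0.12 in A549 and did not pass. Of the MRPS genes that averaged 1 FPKM or more, MRPS14 (-0.22 ± 0.09), MRPS5 (-0.05 ± 0.06) and MRPS21 (-0.01 ± 0.10) had the lowest log2 differences, and none passed.

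**Figure D3:**
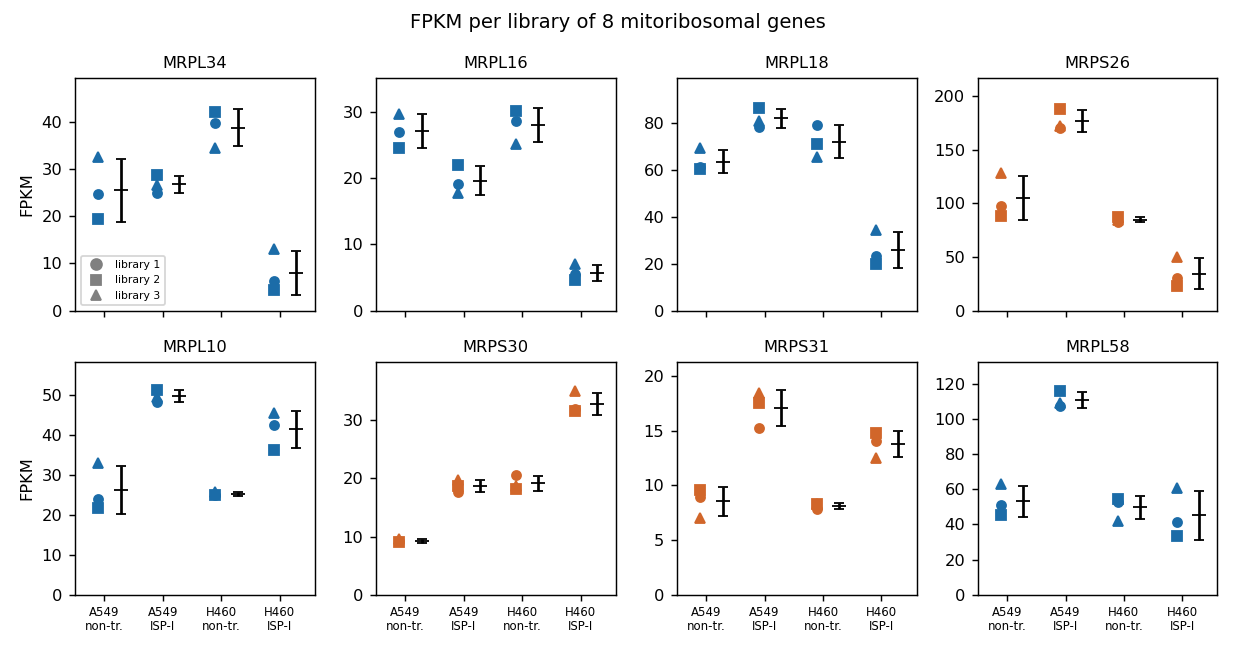
FPKM of 8 genes in each of the 12 libraries (symbols, by library) with the mean and SD of 3 libraries beside them (black); all y axes start at 0. MRPL34, MRPL16, MRPL18 and MRPS26 lay lower in all H460 ISP-I libraries than in all non-treated ones, MRPL10, MRPS30 and MRPS31 lay higher with ISP-I in both lines, and MRPL58 lay higher with ISP-I in A549, while its groups overlapped in H460.

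Whether the change differed between the lines was tested as the interaction of line and treatment over all 12 libraries. Both lines received 10 μM, while in the paper's viability assay H460 was inhibited at lower concentrations than A549. An equal dose was thus not an equal effect, and the part of this in the difference was not tested. The change in H460 minus the change in A549 was negative, at an adjusted p under 0.05 over 13953 genes, for 28 of 48 MRPL genes (58.3%) and 14 of 29 MRPS genes (48.3%), against 34.7% of all genes. It was positive for 0 of either, against 18.6%. It was beyond -1 on the log2 scale for 16 MRPL and 7 MRPS genes (10.1% of all genes), and beyond 1 for none (5.93%). The median was -0.71 for MRPL and -0.70 for MRPS genes, with -0.16 for all genes. After median-of-ratios scaling 19 MRPL and 12 MRPS genes were negative and 1 MRPL gene, MRPL50, was positive, and the medians were -0.41 and -0.39. Without both ISP-I library 3 of H460 and non-treated library 3 of A549, 42 MRPL and 20 MRPS genes were negative. The MRPS genes beyond -1 numbered 3 without ISP-I library 2 of H460 and 11 without its library 3. For these refits too, no share of all genes is given.

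MRPL34 had the most negative difference between the lines, -2.36 ± 0.39 (SE, adjusted p 0.000324, limma). In A549 it had 24.6, 19.4 and 32.6 FPKM without and 24.98, 28.7 and 26.6 FPKM with ISP-I, groups that overlapped. MRPS26 followed at -2.12 ± 0.31 (adjusted p 0.000133, limma), having gone from 97.8, 88.7 and 128 FPKM to 170, 188 and 172 FPKM in A549. MRPL18, at -1.83 ± 0.22 (adjusted p 2.97e-05, limma), went from 61.2, 60.1 and 69.0 FPKM to 78.2, 86.4 and 80.6 FPKM in A549. MRPS26 and MRPL18 thus rose in A549 and fell in H460, each time without overlap. The most positive differences were those of MRPL50 (0.20 ± 0.15), MRPL12 (0.16 ± 0.30) and MRPL38 (0.13 ± 0.17), and none passed.

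Of the 75 members tested in both lines, 14 were lower in H460 and higher in A549, against 3.82% of the 12708 genes tested in both. They were MRPL4, MRPL15, MRPL17, MRPL18, MRPL20, MRPL30, MRPL40 and MRPL52 of the MRPL genes, and MRPS7, MRPS12, MRPS25, MRPS26, MRPS33 and MRPS34 of the MRPS genes. A further 6 were higher in both lines, 2 were lower in both, 17 were lower in H460 and did not pass in A549, 23 were higher in A549 and did not pass in H460, 1 was lower in A549 and did not pass in H460, and 12 passed in neither. No member was higher in H460 and lower in A549. Only the first of these classes has a share of all genes beside it, so the other counts cannot be set against a background.

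**Figure D4:**
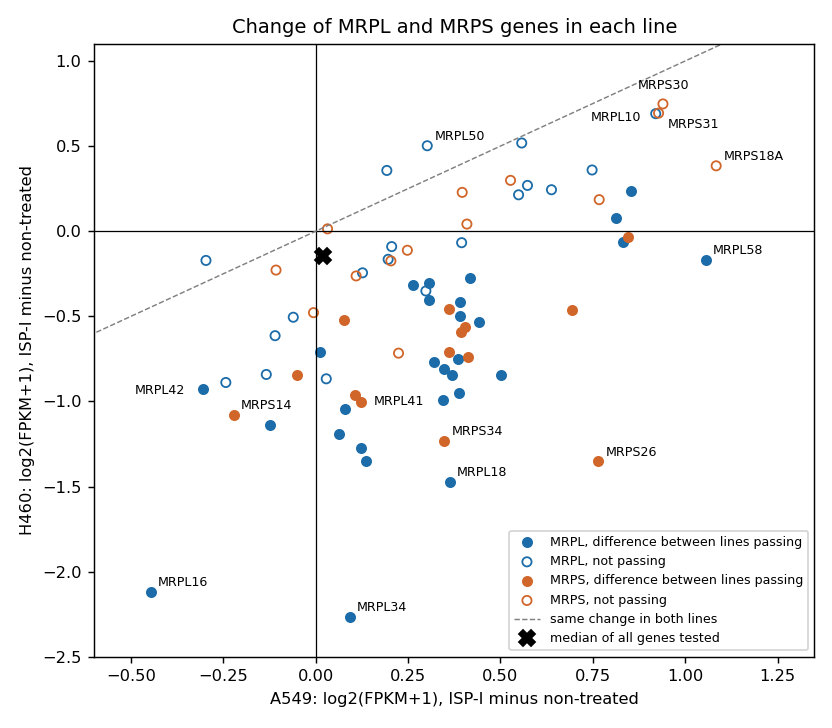
Change of each of the 75 genes tested in both lines, as the mean log2(FPKM+1) with ISP-I minus that without, in A549 (x axis) and H460 (y axis); blue is MRPL, orange MRPS, filled points passed the test of the difference between lines, and the cross is the median of all genes tested. Points gather to the lower right of the dashed line of equal change, with MRPL34 and MRPL16 lowest and MRPS30, MRPL10 and MRPS31 at the upper right.

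By place in the ribosome, the 5 stalk genes (MRPL10, MRPL11, MRPL12, MRPL53 and MRPL54) did not move together. MRPL10 rose in both lines, and MRPL54 passed in A549 (0.56 ± 0.18) but not in H460 (0.52 ± 0.31). MRPL11 was lower in H460, with 25.4, 29.0 and 37.9 FPKM without and 13.0, 10.7 and 29.97 FPKM with ISP-I, groups that overlapped (-0.87 ± 0.33, adjusted p 0.0449, limma). It had a log2 difference of 0.03 ± 0.13 in A549. Of the 8 genes of the central protuberance 5 were lower in H460, and in A549 4 were higher and 1 was lower. Of the 7 genes at the mouth of the exit tunnel, 2 were lower in H460 and 5 higher in A549. Over all genes, 41.5% were lower in H460 and 30.5% higher in A549, and groups of this size carry little weight against those shares.

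MRPL4 and MRPL22 line the tunnel itself. MRPL4 had 10.6, 12.9 and 15.1 FPKM in non-treated and 6.18, 5.40 and 8.82 FPKM in ISP-I libraries of H460, and 5.03, 4.92 and 6.17 FPKM without and 6.45, 7.91 and 7.30 FPKM with ISP-I in A549. It fell in the first line (-0.84 ± 0.19) and rose in the second (0.37 ± 0.11), without overlap in either, and the difference was -1.21 ± 0.23 (adjusted p 0.000798, limma). MRPL22 rose in A549 by 0.30 ± 0.09, while in H460 its groups overlapped (-0.35 ± 0.25). At the tunnel mouth, MRPL45, which ties the ribosome to the inner membrane, went from 40.4, 37.1 and 38.7 FPKM to 64.8, 70.2 and 71.2 FPKM in A549 (0.81 ± 0.07, adjusted p 3.13e-05, limma). In H460 it had 48.6, 47.8 and 43.7 FPKM without and 53.4, 46.7 and 48.0 FPKM with ISP-I, which overlapped (0.08 ± 0.12). MRPL44, a protein with the fold of an RNase III, rose in A549 by 0.31 ± 0.08 and had -0.31 ± 0.19 in H460.

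MRPS12 fell in H460, from 61.8, 65.1 and 60.0 FPKM to 35.4, 24.8 and 57.0 FPKM (-0.74 ± 0.26, adjusted p 0.0306, limma), and rose in A549, from 111, 106 and 160 FPKM to 161, 173 and 161 FPKM (0.41 ± 0.15, adjusted p 0.0409, limma). The 3 paralogs of the S18 protein differed in level and in change. MRPS18B had 41.6, 42.1 and 52.7 FPKM without and 77.9, 83.0 and 85.2 FPKM with ISP-I in A549 (0.85 ± 0.10, adjusted p 0.000176, limma), and overlapping groups in H460 (-0.03 ± 0.14). MRPS18C, under 1 FPKM in all libraries, had 0.03 ± 0.06 in A549 and 0.01 ± 0.13 in H460. MRPS36, which carries the name but is a subunit of the 2-oxoglutarate dehydrogenase complex, had 13.0, 10.6 and 11.2 FPKM without and 3.91, 5.12 and 13.9 FPKM with ISP-I in H460. Its groups overlapped through library 3, and the log2 difference of -0.72 ± 0.36 did not pass; without that library it was -1.20 and passed. By descent, 14 of 30 MRPL genes with a bacterial homolog and 8 of 18 mitochondria-specific ones were lower in H460, and 6 of 16 and 5 of 12 MRPS genes. These shares, 46.7%, 44.4%, 37.5% and 41.7%, were near the 41.5% of all genes. In the same order, 16 of 29 and 10 of 18 MRPL genes, and 7 of 15 and 10 of 12 MRPS genes, were higher in A549, against 30.5% of all genes.

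Before treatment, 17 of 48 MRPL and 12 of 28 MRPS genes were higher in H460 than in A549 (28.6% of 13532 genes tested), and 6 and 5 were lower (31.6%). A difference of more than 2-fold was found upward for 2 MRPL and 2 MRPS genes (5.64% of all genes) and downward for 0 and 1 (8.78%). The medians were 0.15 for MRPL and for MRPS genes and -0.03 for all genes. The upward genes beyond 2-fold were MRPL4 (1.12 ± 0.14), MRPL9 (1.23), MRPS2 (1.07) and MRPS14 (1.08 ± 0.10). The downward gene was MRPS17 (-1.01), with MRPS12 just inside the limit at -0.98 ± 0.15. Without non-treated library 1 of A549 the lower MRPL genes numbered 2 and the lower MRPS genes 3, and without non-treated library 2 of H460 3 and 3. Shares of all genes are not given for these refits.

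The libraries that stood apart did so along gene length. Genes that averaged 1 FPKM or more over the 12 libraries were put in 5 bins of length. Over the shortest bin (207 to 2980 bases), ISP-I library 3 of H460 had a median log2 ratio of 0.28 to the mean of the other 2 of its group, and over the longest bin -0.26. For non-treated library 3 of A549 the values were 0.16 and -0.15. ISP-I library 2 of H460 went the other way, from -0.25 to 0.19. The mitoribosomal genes are short, with a median listed length of 2544 bases against 4317 for the whole table, and 46 of the 71 that averaged 1 FPKM or more were in the shortest bin. After removal of the smooth trend with length in each library, an alternative chosen after seeing the data, 17 MRPL genes were lower and 7 higher in H460. For MRPS genes these were 10 and 6, and the medians were -0.26 and -0.24 with 0.01 for all genes. In A549, 24 MRPL and 15 MRPS genes were then higher, and the interaction was negative for 23 and 13. The counts after removal of the trend have no share of all genes beside them.

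**Figure D5:**
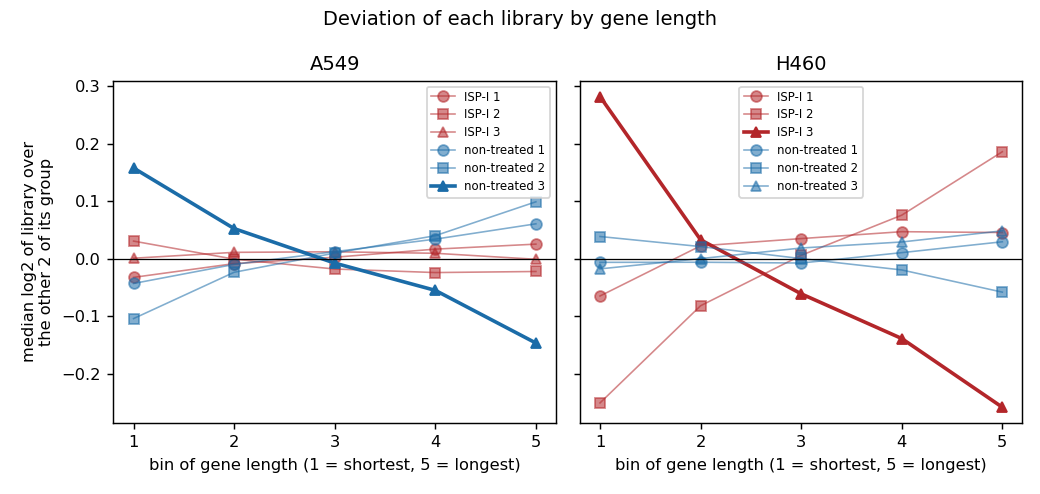
Median log2 ratio of each library to the mean of the other 2 libraries of its group (y axis) over 5 bins of gene length from shortest to longest (x axis), for A549 (left) and H460 (right); blue is non-treated, red ISP-I. The thick lines, non-treated library 3 of A549 and ISP-I library 3 of H460, run from 0.16 to -0.15 and from 0.28 to -0.26.

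The other genes that build or use the mitoribosome were followed as lists. Their counts are to be read against all genes tested, of which 41.5% fell and 27.6% rose in H460, and 27.0% fell and 30.5% rose in A549. Of 5 ribosomal proteins with other names, 3 were lower in H460 and 2 higher in A549, too few to set against those shares. GADD45GIP1 (also known as CRIF1), which sits at the tunnel exit, did both. It went from 60.0, 67.0 and 50.6 FPKM to 30.9, 22.7 and 44.4 FPKM in H460 (-0.88 ± 0.23, adjusted p 0.0082, limma), and from 34.2, 37.3 and 38.6 to 56.0, 52.2 and 49.3 FPKM in A549 (0.51 ± 0.08, adjusted p 0.000694, limma). AURKAIP1 fell in H460 by 1.19 on the log2 scale, and DAP3, a GTP-binding protein of the small subunit, rose in A549 by 0.39 ± 0.07.

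Of 27 factors of mitoribosome assembly and rRNA modification, 12 fell and 4 rose in H460, while in A549 1 fell and 11 rose. The 44.4% that fell in H460 was near the 41.5% of all genes, and the 40.7% that rose in A549 stood against 30.5%. METTL17, an assembly factor of the small subunit, had 17.0, 19.8 and 14.4 FPKM without and 7.29, 7.83 and 6.75 FPKM with ISP-I in H460 (-1.12 ± 0.14, adjusted p 0.00012, limma). RBFA, another, went from 1.24, 1.52 and 1.504 FPKM to 0.303, 0.514 and 0.441 FPKM. Both groups were apart, and ISP-I library 3 was not the highest in either. In contrast the helicase DDX28 and the GTPase MTG2, both factors of the large subunit, rose in both lines. Their log2 differences were 0.34 ± 0.13 and 0.47 ± 0.14 in H460, and 0.83 ± 0.07 and 0.72 ± 0.08 in A549.

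Of 16 tested translation factors, 8 fell and 3 rose in H460, while in A549 1 fell and 6 rose. The share that fell in H460 was 50% against 41.5% of all genes, and the share that rose in A549 37.5% against 30.5%. MTIF3, an initiation factor, went from 9.41, 8.50 and 9.55 FPKM to 2.97, 3.15 and 2.98 FPKM in H460 (-1.33 ± 0.11, adjusted p 1.01e-05, limma), with 0.08 ± 0.14 in A549. PDF, which removes the formyl group from new peptides, went from 3.06, 2.69 and 3.05 FPKM to 0.763, 0.504 and 0.919 FPKM in H460, with 0.01 ± 0.08 in A549. These falls were seen in all 3 ISP-I libraries, and the interaction passed for both genes (adjusted p 3.05e-05 and 1.4e-05, limma). MRRF, the recycling factor, rose in both lines, by 0.40 ± 0.11 and 0.42 ± 0.06. TACO1, the translational activator of the COX1 mRNA, fell by 0.50 in H460 and rose by 0.45 ± 0.08 in A549 on the log2 scale.

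Of the mitochondrial aminoacyl-tRNA synthetases, 10 of 17 fell and 3 rose in H460, while in A549 2 of 16 fell and 5 rose. In H460 58.8% thus fell against 41.5% of all genes, while the 31.2% that rose in A549 was near the 30.5% of all genes. AARS2, for alanine, went from 11.5, 11.7 and 12.1 FPKM to 4.09, 3.73 and 3.90 FPKM in H460 (-1.38 ± 0.10, adjusted p 7.05e-06, limma). WARS2, for tryptophan, rose in both, by 0.64 ± 0.16 and 0.87 ± 0.08. The H460 change of AARS2 was as large in ISP-I library 3 as in the others.

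The 13 mRNAs of the mitochondrial genome, the templates of the mitoribosome, had a median log2 difference of -0.79 in H460, where 8 were lower and 0 higher, and of -0.16 in A549, where 4 were lower and 1 higher. The share lower was 61.5% in H460 against 41.5% of all genes, and 30.8% in A549, near the 27.0% of all genes. MT-ND5, a subunit of complex I, went from 2354, 2320.2 and 2400.1 FPKM to 999, 940 and 779 FPKM in H460 (-1.39 ± 0.20, adjusted p 0.000303, limma), and by -0.97 ± 0.13 in A549. MT-ND6, encoded on the other strand, fell by 1.68 and 1.07. MT-ND3 rose in A549 (1.28 ± 0.14). In H460 it had 1046, 1007 and 1644 FPKM without and 929, 768 and 3234 FPKM with ISP-I, so that library 3 alone stood above the non-treated libraries. The mitochondrial rRNAs were not analysed here.

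Of 10 nuclear regulators of mitochondrial genes, 5 rose and 2 fell in H460, while in A549 6 rose and 0 fell, against 27.6% of all genes that rose in H460 and 30.5% in A549. NRF1, a transcription factor of many such genes, went from 7.14, 9.35 and 8.13 FPKM to 3.72, 3.63 and 3.32 FPKM in H460 (-1.01 ± 0.12, adjusted p 0.000129, limma), with -0.19 ± 0.08 in A549. PPRC1, a coactivator, rose in both lines, by 1.05 ± 0.14 and 0.43 ± 0.06. ESRRA, an orphan nuclear receptor, fell in H460 (-0.51 ± 0.16) and rose in A549 (0.57 ± 0.10). For comparison, and chosen by symbol after values had been seen, 18 of 84 cytosolic ribosomal protein genes fell and 1 rose in H460, while in A549 2 fell and 54 rose, with medians of -0.45 and 0.40. The 21.4% that fell in H460 was under the 41.5% of all genes, and the 64.3% that rose in A549 was over 30.5%. Of 78 nuclear respiratory chain subunits, 34 fell and 1 rose in H460, while in A549 5 fell and 17 rose, with medians of -0.54 and 0.14. The 43.6% that fell in H460 was near the share of all genes, and the 21.8% that rose in A549 was under it.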

How the data were processed

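The authors extracted total RNA from non-treated and ISP-I treated cells, sequenced TruSeq libraries, filtered the reads with FastQC, used HISAT2 for alignment to hg38 and HTSeq 0.9.1 for counting, and deposited FPKM values per gene and library. The annotation version and strand setting were not given in the sources used here. Each value, multiplied by length and by its library factor, came out whole for 100% of genes (tolerance 0.05 of a read), so reads were recovered. The deposited gene length, a column of another unit (bases), was used for lengths. Every sample column was mapped to a group, and libraries were numbered by their place within it. Members and lists were chosen with earlier results of these data known, and ribosomal places and descent were written by hand.

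Genes that averaged 0.1 FPKM or more over the libraries fitted were tested with limma 3.58.1 (R 4.3.3, trended eBayes) on log2(FPKM+1), whose differences understate changes of low genes. P-values were adjusted by Benjamini-Hochberg over all genes tested, and calls had an adjusted p under 0.05. Within-line contrasts used the 6 libraries of the line, the interaction all 12, and the comparison of non-treated lines 6. The code was tested on simulated data. The genes given values were, for each subunit and line, the 3 largest and 3 smallest changes at a mean of at least 1 FPKM, the highest and lowest levels, the 3 extreme interactions each way, genes of set roles, and the 2 smallest p-values per list and line. A gene that this rule selects is not reported here. Alternatives were a pseudocount of 0.1, a minimum of 1 FPKM or none, median-of-ratios scaling, quantile normalization, limma voom on recovered reads, a fit of 12 libraries, removal of trends with gene length or GC content (lowess, span 0.3, chosen after seeing the data), and leaving out libraries. Exon overlap came from GENCODE 44 and promoters from RefSeq, both on GRCh38.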

Additional observations from a re-analysis of the deposited data

Results flagged for a closer look

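The change with ISP-I differed between the lines by the interaction test, at an adjusted p under 0.05 (limma), for 28 MRPL and 14 MRPS genes. These were 58.3% and 48.3% of those tested, against 34.7% of all genes with a negative difference. In all of the 28 and 14 genes the change in H460 lay below that in A549. After median-of-ratios scaling fewer were negative and MRPL50 passed as positive, as given above. Some of the genes of the main fit, such as MRPL18 and MRPS26, fell in H460 and rose in A549. Among the genes given with values above, the change in H460 minus that in A549, on the log2 scale, was -2.36 for MRPL34, -1.83 for MRPL18, -1.67 for MRPL16, -1.34 for MRPL41, -1.22 for MRPL58 and -1.21 for MRPL4. Smaller differences were found for MRPL45 (-0.73), MRPL42 (-0.62), MRPL32 (-0.61) and MRPL44 (-0.61). Among MRPS genes it was -2.12 for MRPS26, -1.58 for MRPS34, -1.15 for MRPS12, -0.88 for MRPS18B, -0.86 for MRPS14 and -0.79 for MRPS5. Dixon's test for a library far from the others was not run.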

How the results depend on the processing

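Across the alternatives, no result that passed its test changed sign, and the differences of single genes kept their direction and side of the threshold in 887 cases, came to pass in 31 and no longer passed in 45 for other settings, with 846, 33 and 70 for left-out libraries. The counts of genes moved more. They are given without the shares of all genes in the same fits. They show how far the calls moved and not a result about the members. Median-of-ratios scaling gave for H460 8 MRPL genes higher and 12 lower, 7 MRPS genes lower, and beyond 2-fold 5 MRPL and 1 MRPS genes lower and 1 MRPS gene higher. For the interaction it gave 1 MRPL gene positive, and 7 MRPL and 2 MRPS genes beyond -1. For the non-treated lines it gave 3 MRPS genes lower in H460, 0 of them beyond 2-fold. limma voom on reads with the same factors gave for H460 8 MRPL and 5 MRPS genes higher, 14 and 7 lower, and beyond 2-fold 1 and 2 higher and 5 and 1 lower. For the interaction it gave 1 MRPL gene positive, and 9 MRPL and 2 MRPS genes beyond -1. Voom with library totals gave 3 MRPS genes higher by more than 2-fold in A549.

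Removal of the trend with gene length gave for H460 7 MRPL and 6 MRPS genes higher, and 5 and 2 lower by more than 2-fold. In A549 it gave 5 MRPL and 1 MRPS genes lower and 0 of either higher by more than 2-fold. For the interaction it gave 1 and 1 positive, and 9 and 2 beyond -1. Removal of the trend with GC content gave for H460 6 and 5 higher, 13 MRPL genes lower, and 5 and 1 lower by more than 2-fold. It gave 1 MRPS gene lower in A549, 1 and 1 positive interactions, and 9 and 3 beyond -1. In A549 a pseudocount of 0.1 gave 2 MRPS genes higher by more than 2-fold, quantile normalization 0 MRPL genes, and the fit of 12 libraries 13 MRPL genes higher and 1 lower. Without both libraries that stood apart, 15 MRPS genes had an interaction beyond -1. Beyond fewer samples or shared spread, the cause of these shifts was not tested.

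Leaving out each library in turn gave, in H460, 2 to 5 MRPL genes higher and 12 to 35 lower, and 6 to 17 MRPL and 2 to 6 MRPS genes lower by more than 2-fold. In A549 it gave 17 to 35 MRPL genes higher and 1 to 3 lower, 0 to 2 MRPL and 1 to 2 MRPS genes higher by more than 2-fold, and 0 to 1 MRPS genes lower. For the interaction, 3 to 11 MRPS genes lay beyond -1. For the non-treated lines, 2 to 6 MRPL and 3 to 5 MRPS genes were lower in H460, and beyond 2-fold 2 to 4 MRPL and 1 to 3 MRPS genes were higher and 0 to 2 MRPS genes lower.

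No paired analysis was possible because the columns are numbered through each line over both treatments and carry no replicate number of the labels. With 3 libraries per group and 3 of 78 genes on at most 15 reads per library, a change of the lowest genes was not detectable at this depth.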
